A study of Homo sapiens with 12 samples.

Results

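The transcripts of interferon-stimulated genes were counted in CAMA-1, a luminal breast cancer line of human origin that carries the oestrogen receptor (ER), in libraries that read the 3′ end of polyadenylated RNA. A list of 39 such genes was taken by symbol from a table of read counts for 60612 named genes. All 39 had a row and at least 1 read, 26 passed the expression filter and were tested among 11803 genes, and 13 were too low to test. The 12 libraries came from wild-type cells in 4 groups of 3 biological replicates, harvested after 5 days with vehicle (DMSO), with the CDK4/6 inhibitor abemaciclib at 100 nM, with the ER degrader fulvestrant at 5 nM, or with both drugs. Doses within the combination are not given again in the labels, which name no interferon and no virus in any group. The comparisons ask how each drug, alone and added to the other, altered the transcript level of these genes. All values come from 1 cell line, and a bulk library cannot separate fewer cells carrying a transcript from less transcript per cell.

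Interferons are secreted proteins that cells release when they sense viral or misplaced nucleic acid. They bind receptors that activate the kinases JAK1, JAK2 and TYK2, which phosphorylate STAT proteins, and a complex that holds STAT2 and IRF9 then binds a promoter sequence called the interferon-stimulated response element (ISRE). The genes switched on in this way encode sensors of foreign RNA, enzymes that degrade or modify RNA, proteins that hinder entry or release of virus, and regulators that amplify or end the signal.

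Total counts per library ran from 3299119 to 5164667, so that 3 reads, taken here as the floor, lay between 0.570 and 0.890 on the scale of CPM (counts scaled to a common library size). CPM values of a 3′ library count transcripts with little dependence on their length. ESR1, GATA3, FOXA1, KRT8, KRT18 and EPCAM, which define luminal epithelial cells, were present in every group at means of 81.5 to 3688 CPM. CD3E, CD68, MS4A1, PDGFRB and PECAM1, markers of immune, stromal and endothelial cells, had no reads in any library, while the leukocyte marker PTPRC had 2 reads and the endothelial marker VWF 13 over all 12. The collagen transcripts COL1A1 and COL3A1 were detected at group means of 16.1 to 22.8 and 3.37 to 9.02 CPM, and their part in the results was not tested. Fulvestrant replicate 3 stood further from its group than other libraries did, with a chi-square per degree of freedom of 9.72 and 15.3 against the other fulvestrant replicates and of 1.87 to 5.59 for every other replicate pair. Results for fulvestrant were therefore also computed without it.

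Promoter sequences are given first, since the ISRE is the feature by which most of these genes are known. RefSeq (GRCh38.p14) windows from 250 bases before to 50 bases after the transcription start were matched for 34 of the 39 genes and not for IFIT2, IRF7, IFITM2, DHX58 and USP18. The core of the ISRE, GAAA repeated after 2 bases of any kind and searched on both strands, was present for 25 of the 34 genes (73.5%), against 1195 of 27305 genes with a promoter window (4.38%). By contrast, TTCNNNGAA, the letters of the GAS element read by STAT dimers, was found for 10 of the 34 genes (29.4%) and for 9.38% of all genes. The full palindromic oestrogen response element was in none of the 34 and in 0.0732% of all genes. The genes without an ISRE core in these windows were OAS1, STAT2, IRF1, IRF9, IFI35, DDX58, HERC6, ADAR and SP100. A match is a description of letters and says nothing of whether a factor is bound.

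The windows below belong to the 6 genes with a promoter entry whose called change against DMSO was largest in size, and to IFIT1, a classical interferon target chosen after its values were seen because it was nearly silent. Each runs 5′ to 3′ from 220 bases before the start to 10 bases after it, in the direction of the gene, and capitals mark the ISRE core. For the 8 genes with more than 1 RefSeq window the shares above count any window, and the first listed is printed. OAS3 lies on the plus strand at chr12:112938254-112938483, PLSCR1 on the minus strand at chr3:146544598-146544827 and HERC6 on the plus strand at chr4:88378632-88378861. DTX3L lies on the plus strand at chr3:122564118-122564347, PARP9 on the minus strand at chr3:122564775-122565004, LGALS3BP on the minus strand at chr17:78979914-78980143 and IFIT1 on the plus strand at chr10:89392403-89392632.
OAS3: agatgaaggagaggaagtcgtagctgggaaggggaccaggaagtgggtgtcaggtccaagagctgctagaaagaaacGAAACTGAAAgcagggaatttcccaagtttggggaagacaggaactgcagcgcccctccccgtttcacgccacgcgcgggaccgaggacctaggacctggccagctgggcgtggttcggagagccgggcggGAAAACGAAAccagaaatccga
PLSCR1: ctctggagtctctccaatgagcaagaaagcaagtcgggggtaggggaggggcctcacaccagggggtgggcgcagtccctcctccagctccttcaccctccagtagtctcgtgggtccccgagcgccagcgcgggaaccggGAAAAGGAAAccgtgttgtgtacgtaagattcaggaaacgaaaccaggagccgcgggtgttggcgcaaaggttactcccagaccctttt
HERC6: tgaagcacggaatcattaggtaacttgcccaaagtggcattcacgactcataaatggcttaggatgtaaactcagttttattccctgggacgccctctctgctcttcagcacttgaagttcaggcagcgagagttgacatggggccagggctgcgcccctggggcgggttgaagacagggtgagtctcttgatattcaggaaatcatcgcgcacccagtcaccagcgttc
DTX3L: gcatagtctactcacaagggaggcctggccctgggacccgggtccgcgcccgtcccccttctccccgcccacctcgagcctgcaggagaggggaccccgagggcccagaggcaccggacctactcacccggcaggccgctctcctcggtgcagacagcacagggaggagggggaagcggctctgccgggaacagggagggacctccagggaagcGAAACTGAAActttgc
PARP9: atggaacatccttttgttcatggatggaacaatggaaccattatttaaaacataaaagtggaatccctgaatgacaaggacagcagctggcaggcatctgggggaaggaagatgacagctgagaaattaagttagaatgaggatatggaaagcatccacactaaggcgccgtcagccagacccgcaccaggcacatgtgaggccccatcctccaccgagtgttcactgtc
LGALS3BP: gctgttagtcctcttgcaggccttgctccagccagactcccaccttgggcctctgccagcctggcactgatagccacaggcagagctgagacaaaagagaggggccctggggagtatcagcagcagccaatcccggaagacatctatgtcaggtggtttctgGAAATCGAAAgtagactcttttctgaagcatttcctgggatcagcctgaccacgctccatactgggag
IFIT1: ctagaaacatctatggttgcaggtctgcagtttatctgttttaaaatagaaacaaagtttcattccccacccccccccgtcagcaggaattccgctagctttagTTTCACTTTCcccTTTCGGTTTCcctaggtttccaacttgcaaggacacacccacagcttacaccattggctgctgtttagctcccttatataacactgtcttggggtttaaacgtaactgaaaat

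OAS3 and IFIT1 each carried 2 ISRE cores in the printed stretch, PLSCR1, DTX3L and LGALS3BP carried 1, and HERC6 and this window of PARP9 carried none. A further RefSeq window of PARP9 did hold a match, at chr3:122564332-122564341, and that is the same stretch of 10 bases as the match of DTX3L. The 2 genes start head to head on opposite strands, with gene bodies that overlap by 240 bases in GENCODE v44. In the OAS3 promoter the ISRE core nearest the start overlapped a match to TTTCCCGC on the opposite strand, letters bound by E2F factors, which were found for 3 of the 34 genes (8.82%) and for 1.98% of all genes. TTTGGCGC, a further E2F letter string, was in none of the 34 and in 0.795% of all genes. An ISRE core was present for 11 of 12 genes below the filter (91.7%) and for 14 of 22 genes tested (63.6%).

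The 13 genes too low to test include many of the classical interferon targets. IFIT2, IFIT3 and SAMD9 never exceeded 2 reads in a library, HERC5 never exceeded 3, and OAS1, IFI27, IFI44, IFI44L and IFITM1 never exceeded 1. IFIT1 reached at most 5 reads, IFIT5 8 reads, and MX1, which blocks the replication of RNA viruses, 3 to 9 reads. The IFIT proteins bind foreign RNA and block its translation, and all 4 of those listed were below the filter. Summed over the 13 genes, the reads per library were 10 to 17 with DMSO, 25 to 34 with abemaciclib, 5 to 21 with fulvestrant and 17 to 27 with the combination.

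IFITM3, which restricts viral entry at the endosome, had the highest count among the 13 and accounted for a part of that difference. It had 0, 1 and 3 reads with DMSO, 6, 8 and 9 with abemaciclib, 8, 2 and 3 with fulvestrant, and 7, 19 and 7 with the combination. The abemaciclib and combination libraries all lay above the DMSO libraries. Scaled for depth, the summed reads were 5.74 times those of DMSO with abemaciclib (exact 95% interval 1.96 to 22.8) and 7.86 times with the combination (2.79 to 30.5). They were 3.65 times those of DMSO with fulvestrant (1.13 to 15.4), and the combination had 2.15 times those of fulvestrant (1.10 to 4.45), with intervals that cover counting error only. Without a filter on low counts, the edgeR quasi-likelihood test called the increases over DMSO with abemaciclib and with the combination. Their log2 fold changes were 2.44 (adjusted p 0.00818) and 2.87 (adjusted p 3.2e-04).

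**Figure D1:**
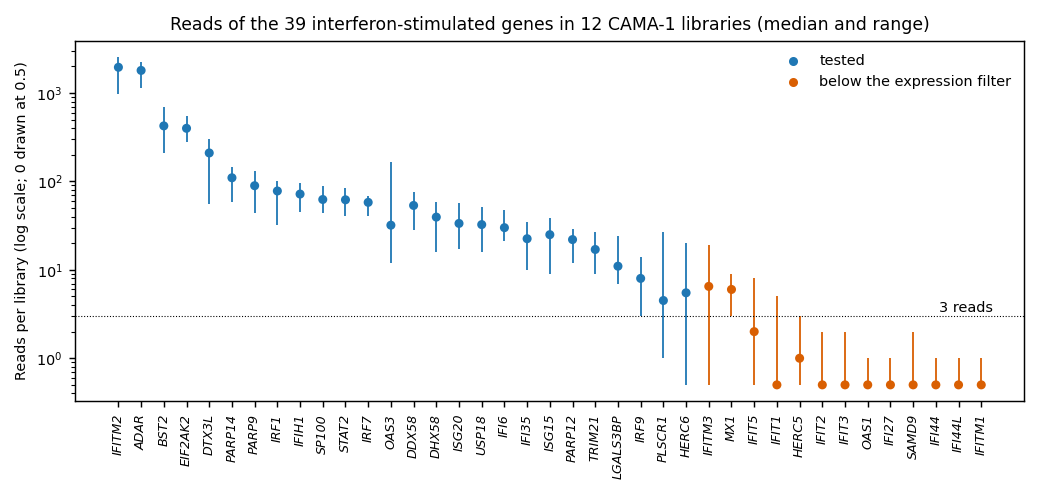
Reads per library of the 39 interferon-stimulated genes, on a log axis with 0 drawn at 0.5. Points are medians and lines the range over 12 libraries, blue genes were tested and orange genes were below the expression filter, and the dotted line marks 3 reads. IFITM2 and ADAR are highest at the left, and IFITM1, with at most 1 read, is at the right.

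The ligands were as low. Of 10 interferon genes looked at, IFNA1, IFNA2, IFNB1, IFNE, IFNK, IFNW1, IFNG and IFNL3 had no reads in any library, IFNL1 had 2 reads and IFNL2 had 4 over all 12. Levels below the floor of 3 reads, 0.570 to 0.890 CPM, could not be measured at this depth.

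For each treatment, the share of these genes called in either direction was about that of all genes. More of the calls here were higher than lower, whereas those over all genes were split almost evenly. With abemaciclib, 10 of the 26 tested genes were higher than with DMSO and 2 were lower, which is 46.2% called where 41.2% of all tested genes were called (20.5% higher and 20.7% lower). With fulvestrant, 10 were higher and 5 lower (57.7%, background 51%, of which 25.3% higher and 25.7% lower). With the combination, 9 were higher and 4 lower (50%, background 55.2%, of which 27.7% higher and 27.5% lower). The 3 comparisons share the DMSO libraries. The median log2 fold change of the 26 genes was 0.37 with abemaciclib, 0.19 with fulvestrant and 0.22 with the combination, beside medians over all genes of 0.00046, 0.0075 and 0.010. The count for abemaciclib rested in part on DMSO replicate 2, without which it was 6, and that for fulvestrant was 13 without fulvestrant replicate 3. DESeq2 called 8 of the 26 genes with abemaciclib (7 higher and 1 lower), where it called 2120 of all genes higher and 2192 lower. It called 13 with fulvestrant and 13 with the combination.

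Added to abemaciclib, fulvestrant lowered 7 of the 26 genes and raised 2 (34.6%, background 33.5%, of which 15.9% higher and 17.7% lower). Added to fulvestrant, abemaciclib altered none (0%, background 1.92%, of which 0.297% higher and 1.63% lower). That comparison had 3 genes at an unadjusted p under 0.05, and DESeq2 called 0 as well. Averaged over the 26 genes, log2 CPM relative to the DMSO mean lay at -0.01 to 0.01 in the DMSO libraries and at 0.25 to 0.33 with abemaciclib. It lay at -0.12 to 0.03 with fulvestrant and -0.07 to 0.01 with the combination, ranges that overlapped those of DMSO. The median over the 26 genes was instead -0.05 to 0.02 in the DMSO libraries, 0.27 to 0.39 with abemaciclib, 0.08 to 0.23 with fulvestrant and 0.14 to 0.29 with the combination, so that on this measure no treated library overlapped DMSO. Summed over all 39 genes, CPM was 1006 to 1127 with DMSO and 1262 to 1386 across all treated libraries, and IFITM2 and ADAR made up most of that sum.

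**Figure D2:**
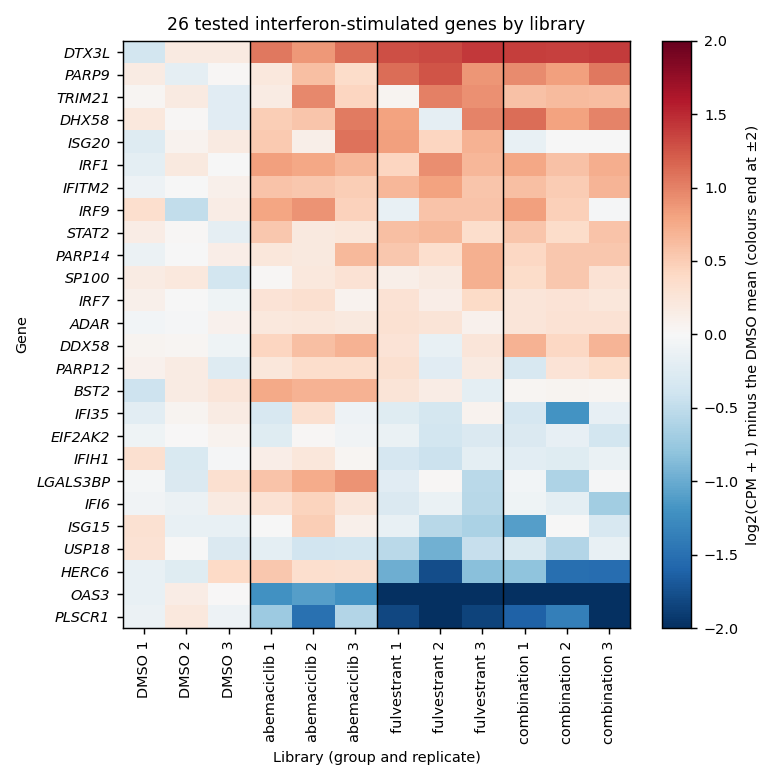
Level of each of the 26 tested interferon-stimulated genes (rows) in each of the 12 libraries (columns), as log2(CPM + 1) minus the DMSO mean, with red higher, blue lower and colours ending at ±2. DTX3L and PARP9 at the top were higher in the treated libraries, OAS3 and PLSCR1 at the bottom were lower, and BST2 and LGALS3BP were red in the abemaciclib columns.

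Among the enzymes of double-stranded RNA, the largest change was a loss of OAS3. OAS3 makes the messenger 2-5A when it binds double-stranded RNA, and was 25.5, 31.4 and 28.3 CPM with DMSO, 11.6, 12.6 and 11.6 with abemaciclib, 4.45, 4.23 and 4.10 with fulvestrant, and 3.13, 2.69 and 2.33 with the combination. The 4 groups did not overlap. On the log2 scale OAS3 fell by 1.26 ± 0.16 (SE; adjusted p 4.6e-07) with abemaciclib, by 2.74 ± 0.20 (adjusted p 3.6e-12) with fulvestrant and by 3.39 ± 0.21 (adjusted p 8.0e-14) with the combination, which also lay below abemaciclib alone by -2.14 ± 0.23 (adjusted p 3.0e-08). Against fulvestrant alone the combination differed by -0.66 (95% interval -1.24 to -0.07), which did not pass the adjusted threshold (adjusted p 0.36). Its neighbour OAS1, on the same strand 4831 bases away, had at most 1 read.

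ISG20, an exonuclease that degrades viral RNA, behaved differently. Its libraries read 5.05, 6.65 and 7.23 CPM with DMSO, 9.40, 6.84 and 14.4 with abemaciclib, 11.9, 8.74 and 10.7 with fulvestrant, and 5.53, 6.203 and 6.21 with the combination. ISG20 was called higher with abemaciclib (0.65 ± 0.25, adjusted p 0.0415), whose libraries overlapped those of DMSO, and with fulvestrant (0.71 ± 0.26, adjusted p 0.0233). The combination differed from DMSO by -0.10 (95% interval -0.66 to 0.46). The abemaciclib call was lost without DMSO replicate 1 (0.54) or 2 (0.68) or without abemaciclib replicate 1 (0.71) or 3 (0.35), and the fulvestrant call without DMSO replicate 1 (0.60) or 2 (0.74) or fulvestrant replicate 1 (0.62). Under DESeq2 the abemaciclib call was lost as well (0.66, adjusted p 0.0724). The combination lay below abemaciclib alone by -0.75 ± 0.25 (adjusted p 0.0243). That difference was not called without abemaciclib replicate 3 (-0.44) or without combination replicate 1 (-0.70), 2 (-0.77) or 3 (-0.78).

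ADAR, which edits adenosine to inosine in double-stranded RNA and so keeps self RNA from being sensed, was abundant and changed little. It was 342, 352 and 378 CPM with DMSO and 380 to 439 CPM in the treated libraries, and rose by 0.21 to 0.27 on the log2 scale in each of the 3 comparisons with DMSO. EIF2AK2 (PKR), the kinase that halts translation on binding such RNA, was 97.4 to 108 CPM with DMSO, 79.3 to 93.4 with fulvestrant and 79.8 to 92.2 with the combination. It fell by 0.27 with fulvestrant and by 0.27 with the combination. The ADAR call was lost for abemaciclib without DMSO replicate 1 or 2 or abemaciclib replicate 1 or 2 (0.19 to 0.22), and for fulvestrant without DMSO replicate 1 or 2 or fulvestrant replicate 1 (0.19 to 0.21). For fulvestrant it was also lost in a fit to the compared groups alone (0.23). The EIF2AK2 call was lost for fulvestrant without DMSO replicate 2 or 3 or fulvestrant replicate 2 (-0.26 to -0.22), and for the combination without DMSO replicate 3 (-0.23) or combination replicate 3 (-0.22).

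Of the cytosolic RNA sensors, DDX58 (RIG-I) and DHX58 (LGP2) rose while IFIH1 (MDA5) was not called in any comparison. DDX58 was 9.20, 9.12 and 8.27 CPM with DMSO, 12.2, 13.9 and 14.9 with abemaciclib, 10.9, 7.90 and 10.7 with fulvestrant, and 14.9, 12.2 and 14.8 with the combination. The increases with abemaciclib (0.62 ± 0.19, adjusted p 0.0113) and with the combination (0.66 ± 0.19, adjusted p 0.00488) passed the threshold and the value with fulvestrant did not (0.16 ± 0.21, adjusted p 0.53). In GENCODE v44, 94.8% of the 100-base windows in the last 500 bases of DDX58 also occur in another gene model, so that its counts are uncertain where reads were shared. Whether the overlapping models here and below were in GENCODE v35, the annotation used for counting, was not checked.

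DHX58, which modulates signalling by the other two sensors, was 6.23, 5.32 and 4.34 CPM with DMSO, 7.80, 8.17 and 11.9 with abemaciclib, 9.88, 4.51 and 11.4 with fulvestrant, and 12.5, 9.92 and 11.5 with the combination. The abemaciclib and combination libraries lay above those of DMSO, whereas fulvestrant replicate 2 lay among them. It rose by 0.81 ± 0.28 (adjusted p 0.0228), 0.74 ± 0.29 (adjusted p 0.0333) and 1.11 ± 0.27 (adjusted p 0.00117). The fulvestrant call was lost without DMSO replicate 2 (0.76) or 3 (0.63) or fulvestrant replicate 1 (0.66) or 3 (0.49), and the abemaciclib call without DMSO replicate 2 (0.83) or 3 (0.69) or abemaciclib replicate 3 (0.61). The fulvestrant call was also lost under DESeq2 (0.73, adjusted p 0.0528) and in an edgeR fit to the compared groups alone (0.74, adjusted p 0.0681). IFIH1 ranged from 12.7 to 21.96 CPM over the 12 libraries, and would have been called lower with fulvestrant without DMSO replicate 2 (-0.48).

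The transcription factors of the response were modestly higher where they changed. IRF1, which binds ISRE-like sites, was 9.50, 12.7 and 11.0 CPM with DMSO, 20.2, 19.4 and 17.9 with abemaciclib, 15.1, 21.7 and 18.005 with fulvestrant, and 19.5, 17.0 and 18.8 with the combination. Every treated library exceeded every DMSO library, and the log2 fold changes were 0.78 ± 0.17 (adjusted p 7.0e-04), 0.70 ± 0.18 (adjusted p 0.00174) and 0.71 ± 0.17 (adjusted p 9.9e-04). STAT2, a subunit of the ISRE-binding complex, averaged 10.9 CPM with DMSO and rose by 0.58 ± 0.18 (adjusted p 0.00955) with fulvestrant and by 0.54 ± 0.18 (adjusted p 0.0125) with the combination. The latter call was lost without DMSO replicate 3 (0.45). IRF7, which amplifies the response, stayed between 10.5 and 15.04 CPM and was not called. IRF9, the DNA-binding subunit, was 0.570 to 3.09 CPM and was not called, and 71.8% of its 3′ windows are shared with another gene model.

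The ADP-ribosylation partners PARP9 and DTX3L, which form a complex that attaches ubiquitin to histones, both rose with fulvestrant and with the combination. DTX3L was 16.6, 24.9 and 24.8 CPM with DMSO, 46.4, 40.6 and 48.5 with abemaciclib, 54.9, 55.8 and 59.9 with fulvestrant, and 58.5, 57.7 and 58.8 with the combination. The DMSO, abemaciclib and fulvestrant libraries did not overlap. DTX3L rose by 1.00 ± 0.13 (adjusted p 6.0e-07), 1.34 ± 0.13 (adjusted p 1.6e-09) and 1.37 ± 0.13 (adjusted p 5.7e-10), and the combination lay above abemaciclib alone by 0.37 ± 0.12 (adjusted p 0.0162), a call lost without abemaciclib replicate 2 (0.30).

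PARP9, transcribed from the opposite strand of the same promoter region, was 13.1, 10.1 and 11.8 CPM with DMSO, 13.6, 18.1 and 15.2 with abemaciclib, 26.2, 29.1 and 22.1 with fulvestrant, and 23.3, 21.3 and 25.2 with the combination. It rose by 1.16 ± 0.17 (adjusted p 2.0e-06) with fulvestrant and 1.02 ± 0.17 (adjusted p 1.0e-05) with the combination, which exceeded abemaciclib alone by 0.58 ± 0.16 (adjusted p 0.00599). With abemaciclib the value was 0.44 ± 0.18 at the edge of the threshold (adjusted p 0.0498), and it was lost under 13 of 19 alternatives, among them leaving out DMSO replicate 2 or 3, abemaciclib replicate 2 or 3, fulvestrant replicate 1 or any combination replicate (0.32 to 0.46). The exons of the 2 genes overlap at their 5′ ends, away from the 3′ reads, and no 3′ window was shared.

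PARP14, a mono-ADP-ribosyltransferase encoded near them on chromosome 3, averaged 19.2 CPM with DMSO and rose by 0.55 ± 0.15 (adjusted p 0.00374) with fulvestrant and 0.51 ± 0.15 (adjusted p 0.00583) with the combination. Its value with abemaciclib (0.37 ± 0.15, adjusted p 0.0569) passed without abemaciclib replicate 1 (0.44) or 2 (0.45) or fulvestrant replicate 2 (0.37) or 3 (0.37). PARP12, a relative that binds viral RNA, was 3.13 to 5.63 CPM and was not called. TRIM21, a ubiquitin ligase and cytosolic antibody receptor, was 2.67, 3.04 and 2.07 CPM with DMSO, 3.00, 5.96 and 3.79 with abemaciclib, 2.72, 6.21 and 5.70 with fulvestrant, and 4.33, 4.55 and 4.47 with the combination. Only its increase with fulvestrant was called (0.89 ± 0.36, adjusted p 0.0423). That call was lost without any DMSO replicate or without fulvestrant replicate 2 or 3, where the values ran from 0.71 to 1.05, and under DESeq2 (0.90). It was also lost without a filter on low counts (0.90) and in a fit to the compared groups alone (0.90).

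**Figure D3:**
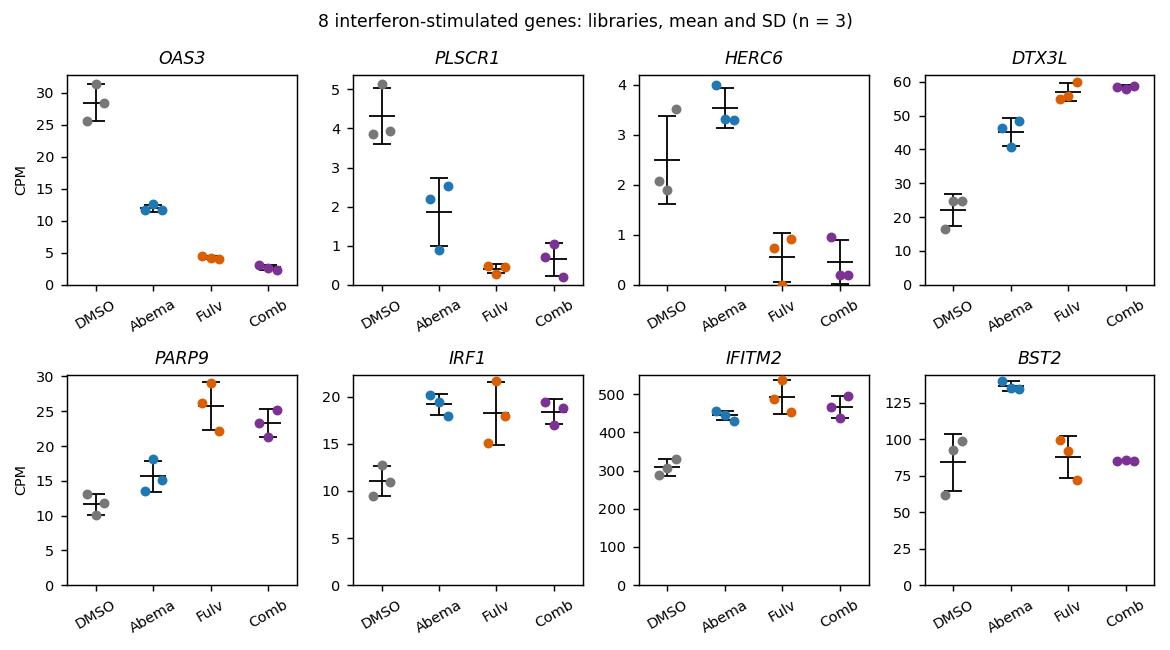
CPM of 8 interferon-stimulated genes in the 3 libraries of each group (points), with the mean and SD (lines, n = 3) on linear axes from 0. OAS3 stepped down from 25.5 to 31.4 CPM with DMSO to 2.33 to 3.13 with the combination, DTX3L rose from at most 24.9 to at least 40.6 CPM in treated libraries, and BST2 was at 134 to 140 CPM with abemaciclib alone.

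The ISG15 pathway attaches the ubiquitin-like protein ISG15 to other proteins, and none of its tested genes rose in any comparison. ISG15 itself was low, at 7.42, 5.13 and 5.17 CPM with DMSO and 2.17 to 8.61 CPM elsewhere. It was not called, except below abemaciclib in the combination when combination replicate 2 was left out (-1.01). USP18, which removes ISG15 and restrains the type I receptor, was 12.2, 9.69 and 7.85 CPM with DMSO, 8.40, 7.28 and 7.33 with abemaciclib, 6.42, 4.51 and 6.84 with fulvestrant, and 7.70, 6.203 and 8.74 with the combination. It fell by 0.70 ± 0.25 (adjusted p 0.0192) with fulvestrant, a call lost without DMSO replicate 1 (-0.55) or fulvestrant replicate 2 (-0.55), and 50.1% of its 3′ windows are shared with another gene model.

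HERC6, a ligase of the family that attaches ISG15, was near or below the floor of 3 reads with fulvestrant (3, 0 and 4 reads) and with the combination (4, 1 and 1 reads), so the sizes of its falls are uncertain. It was 2.08, 1.9004 and 3.51 CPM with DMSO, 4.00, 3.31 and 3.28 with abemaciclib, 0.741, 0 and 0.912 with fulvestrant, and 0.962, 0.207 and 0.194 with the combination, or 34, 48, 7 and 6 reads per group. The fulvestrant and combination libraries all lay below those of DMSO and abemaciclib. It fell by 2.06 ± 0.61 (adjusted p 0.00605) with fulvestrant, by 2.49 ± 0.62 (adjusted p 0.00132) with the combination, and fell by 2.98 ± 0.58 (adjusted p 2.2e-04) from abemaciclib to the combination. HERC6 passed the expression filter through its abemaciclib libraries (20, 15 and 13 reads, beside 7, 10 and 17 with DMSO), the group where it was highest. Fits to the compared groups alone tested 24 of the 26 genes for fulvestrant and for the combination against DMSO. HERC6 was not called in those fits. HERC5, its neighbour on chromosome 4 and the main ligase for ISG15 in human cells, had at most 3 reads.

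Among proteins at membranes, IFITM2, which blocks fusion of entering virus, was the most abundant at 288, 306 and 331 CPM with DMSO, 456, 446 and 431 with abemaciclib, 488, 538 and 452 with fulvestrant, and 466, 437 and 495 with the combination. All treated libraries exceeded all DMSO libraries, and it rose by 0.53 ± 0.08 (adjusted p 5.3e-06), 0.68 ± 0.08 (adjusted p 5.5e-08) and 0.59 ± 0.08 (adjusted p 3.9e-07). IFITM1, which lies 643 bases away, had at most 1 read. Of the 3′ windows, 71.1% of those of IFITM1, 4.74% of those of IFITM2 and 10.5% of those of IFITM3 occur in another gene model, so that the low count of IFITM1 is uncertain. All of them share windows with an unnamed model that overlaps exons of IFITM1 and IFITM2 on the same strand. IFITM1 and IFITM3 also share windows with each other.

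BST2 (tetherin), which holds budding virus at the cell surface, was 62.0, 92.4 and 98.4 CPM with DMSO, 140, 135 and 134 with abemaciclib, 99.3, 91.7 and 71.8 with fulvestrant, and 85.2, 85.6 and 84.7 with the combination. The abemaciclib libraries lay above all others. BST2 rose by 0.68 ± 0.13 (adjusted p 4.1e-04) with abemaciclib, and the combination lay below abemaciclib alone by -0.68 ± 0.13 (adjusted p 5.1e-04) and differed from DMSO by 0.00 (95% interval -0.28 to 0.28).

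PLSCR1, a membrane scramblase that strengthens the interferon response, fell with each treatment. With fulvestrant every library lay below the floor of 3 reads (2, 1 and 2 reads), as did combination replicate 3 (1 read). The sizes of the falls in these 2 groups are therefore uncertain. PLSCR1 was 3.86, 5.13 and 3.93 CPM with DMSO, 2.20, 0.883 and 2.53 with abemaciclib, 0.494, 0.282 and 0.456 with fulvestrant, and 0.722, 1.03 and 0.194 with the combination, or 59, 25, 5 and 9 reads per group. The DMSO libraries lay above all others. From the summed reads DMSO was 10.5 times the level with fulvestrant (exact 95% interval 4.25 to 33.5, counting error only), and the edgeR changes were -1.22 ± 0.40 (adjusted p 0.0171) with abemaciclib, -3.30 ± 0.56 (adjusted p 1.7e-05) with fulvestrant and -2.72 ± 0.49 (adjusted p 3.5e-05) with the combination. The abemaciclib call was lost without DMSO replicate 2 (-1.06) or abemaciclib replicate 2 (-0.88), and under DESeq2 (-1.23, adjusted p 0.0645). The combination lay below abemaciclib by -1.501 ± 0.57 (adjusted p 0.0443). This was lost under 11 of 19 alternatives, among them leaving out any DMSO replicate, abemaciclib replicate 1 or 3, fulvestrant replicate 1 or combination replicate 1 or 3, with values of -1.58 to -1.04.

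Of the remaining effectors, LGALS3BP, a secreted glycoprotein that binds galectins, was 2.67, 2.09 and 3.72 CPM with DMSO, 4.602, 5.30 and 6.06 with abemaciclib, 2.22, 2.82 and 1.60 with fulvestrant, and 2.65, 1.45 and 2.72 with the combination. As for BST2, the abemaciclib libraries lay above all others. It rose by 0.90 ± 0.33 (adjusted p 0.0332) with abemaciclib and the combination lay below that level by -1.21 ± 0.34 (adjusted p 0.00735). The first call was lost without DMSO replicate 1 (0.87) or 2 (0.69) or abemaciclib replicate 2 (0.90) or 3 (0.80), and the second without combination replicate 2 (-0.97). The first was also lost under DESeq2 (0.90, adjusted p 0.0856) and in edgeR without a filter on low counts (0.91, adjusted p 0.0587).

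IFI6, a mitochondrial and endoplasmic reticulum protein that limits cell death, was 7.12, 6.84 and 8.68 CPM with DMSO, 9.40, 10.6 and 9.10 with abemaciclib, 5.93, 6.77 and 4.79 with fulvestrant, and 6.98, 6.41 and 4.27 with the combination. It was called only between abemaciclib and the combination (-0.73 ± 0.24, adjusted p 0.0182), and not without abemaciclib replicate 2 (-0.67) or combination replicate 3 (-0.54). Of the 3′ windows of IFI6, 29.2% are shared with another gene model. IFI35 (2.07 to 7.73 CPM) and SP100, a nuclear body protein (9.09 to 20.3 CPM), were not called. Against DMSO, the combination was called for IFI35 without combination replicate 3 (-0.91) and for SP100 without fulvestrant replicate 3 (0.41).

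Whether the effect of abemaciclib differed in the presence of fulvestrant was tested as an interaction, the log2 change with abemaciclib on top of fulvestrant minus that on top of DMSO. It was called for 5 of the 26 genes, all of them below 0 (19.2%, background 21.1%, of which 9.49% above 0 and 11.6% below). These were ISG20 (-1.45 ± 0.36, adjusted p 0.00464), DTX3L (-0.97 ± 0.18, adjusted p 2.1e-04), IRF1 (-0.76 ± 0.24, adjusted p 0.0231), BST2 (-0.72 ± 0.19, adjusted p 0.0107) and IFITM2 (-0.61 ± 0.11, adjusted p 2.5e-04). In each of them the change with abemaciclib over DMSO was above 0 and that over fulvestrant was near 0 or below it. For DTX3L, for example, the change over fulvestrant was 0.04 (95% interval -0.20 to 0.27), and for ISG20 it was -0.80 (-1.33 to -0.27), neither of which passed the adjusted threshold. The IRF1 call was lost without DMSO replicate 1 (-0.68), abemaciclib replicate 1 (-0.72), fulvestrant replicate 2 (-0.63) or combination replicate 2 (-0.71), and PARP9 was called without fulvestrant replicate 3 (-0.68). The median over the 26 genes was -0.40, beside -0.01 over all genes.

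**Figure D4:**
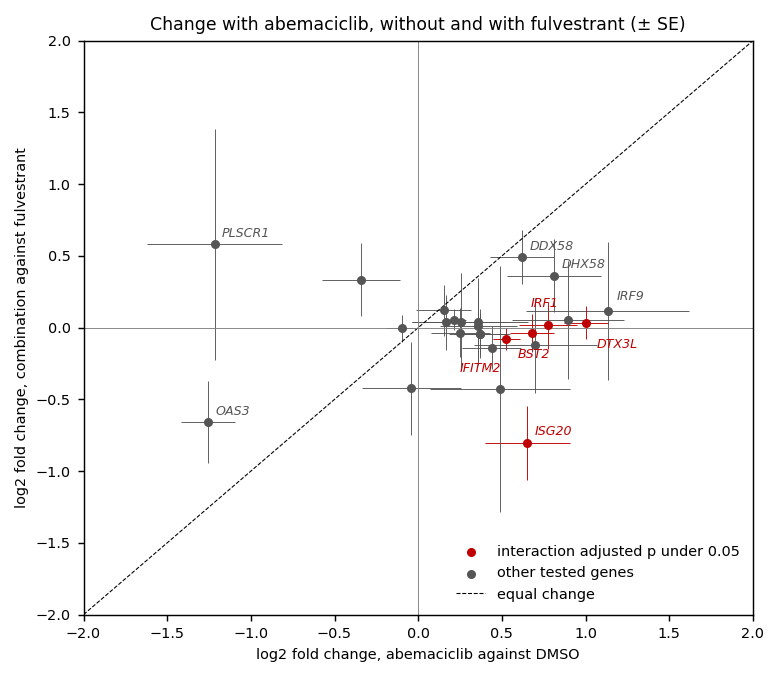
Log2 fold change with abemaciclib in the absence of fulvestrant (abemaciclib against DMSO, x axis) and in its presence (combination against fulvestrant, y axis) for the 26 tested interferon-stimulated genes, with bars of ± 1 SE and a dashed line of equal change. The 5 genes in red, with an interaction called, sit between 0.53 and 1.00 on the x axis and between -0.80 and 0.04 on the y axis.

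Genes that carry or regulate the interferon signal, together with other interferon-stimulated genes, were taken as a second list of 68. Of these 32 were tested, 21 were below the filter and 15 had no reads. Other interferon-stimulated genes made up 10 of those tested, 13 of those below the filter and 6 of those with no reads. Against DMSO, 14 of the 32 rose and 2 fell with abemaciclib (50%, background 41.2%), 14 rose and 6 fell with fulvestrant (62.5%, background 51%), and 12 rose and 5 fell with the combination (53.1%, background 55.2%). From abemaciclib to the combination 1 rose and 7 fell (25%, background 33.5%). From fulvestrant to the combination none was called (background 1.92%), with 3 at an unadjusted p under 0.05. The interaction was called for 12 (37.5%, background 21.1%), with 11 of them below 0. Without abemaciclib replicate 1 or 3 the interaction was called for 7 or 6 of the genes, and without fulvestrant replicate 3 the step from abemaciclib to the combination was called for 13. The kinases JAK1, JAK2 and TYK2 and the transcription factor STAT3 were each higher than DMSO in each of the 3 treatments.

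STAT3, which relays cytokine signals, rose by 1.04 ± 0.08 (adjusted p 1.7e-11) with the combination.

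SOCS3, an inhibitor of JAK signalling, had the largest called change on that list from abemaciclib to the combination. It was 16.3, 24.7 and 19.4 CPM with DMSO, 52.0, 60.3 and 61.7 with abemaciclib, 21.7, 24.5 and 16.6 with fulvestrant, and 21.2, 22.3 and 21.9 with the combination. The abemaciclib libraries stood apart from the other three groups, and SOCS3 rose by 1.498 ± 0.15 (adjusted p 3.1e-09) with abemaciclib and fell by 1.41 ± 0.14 (adjusted p 1.1e-08) from there to the combination. Its contrast in the presence and absence of fulvestrant was -1.43 ± 0.22 (adjusted p 2.5e-05).

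Other large changes on the list included TRIM5, a factor that restricts retroviral capsids (1.95 ± 0.40, adjusted p 3.0e-04), IFNGR2, a chain of the interferon gamma receptor (1.28 ± 0.17, adjusted p 5.0e-07), and TICAM1, an adaptor of Toll-like receptor signalling (0.82 ± 0.22, adjusted p 0.00946), all as log2 fold changes with abemaciclib. With the combination the helicase DDX60 rose by 1.33 ± 0.33 (adjusted p 0.00110), the phosphatase PTPN2, which dephosphorylates JAK and STAT proteins, fell by 1.03 ± 0.21 (adjusted p 1.5e-04) and TRIM28, a corepressor that silences endogenous retroviruses, fell by 0.86 ± 0.08 (adjusted p 9.9e-10). TRIM14 fell by 1.25 ± 0.16 (adjusted p 8.9e-07) from abemaciclib to the combination. Receptor chains for the type I interferons did not move together. IFNAR1 rose by 0.32 ± 0.10 (adjusted p 0.0115) and IFNAR2 fell by 0.71 ± 0.28 (adjusted p 0.0331) with fulvestrant. The IFNAR2 call was lost without DMSO replicate 1 (-0.72, adjusted p 0.0531), DMSO replicate 3 (-0.60, adjusted p 0.121) or fulvestrant replicate 3 (-0.38, adjusted p 0.234). It was also lost under DESeq2 (-0.71, adjusted p 0.0509) and in an edgeR fit to the compared groups alone (-0.70, adjusted p 0.0555).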

How the data were processed

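The values used are raw counts of reads by gene, deposited by the authors for 12 QuantSeq 3′ mRNA FWD libraries. Per the study's methods, reads of 100 bases were trimmed with BBDuk v38.90, aligned to hg38 with STAR v2.7.5b and counted with featureCounts v2.0.1 against GENCODE v35. The strand setting of the counting is not given in the sources used here, and no molecular identifiers are named, so intervals and floors cover counting error only. The 44 rows without a gene name held 0 reads and were left out.

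The tests ran in edgeR 4.0.16 under R 4.3.3. Genes were filtered by filterByExpr (minimum count 10, minimum total 15), which left 11803, and scaled by TMM. A quasi-likelihood model with robust dispersions held the 4 group means. P-values were adjusted by the Benjamini-Hochberg method over all genes tested, with a threshold of 0.05, and they measure the spread between the replicates as deposited. Log2 fold changes carry SEs of |log2 fold change| divided by the square root of F. CPM used the scaled totals of the filtered genes. The code was tested on simulated data.

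The gene lists, and the choice of genes, were made with earlier results of these data known. Library values are given for tested genes called with at least 1.5-fold change in any contrast, and all 39 genes are accounted for. On the pathway list the rule was to name the 10 genes with the largest called changes and the ligands, and some genes are not reported here. The other genes named from that list were chosen after their values were seen. Alternatives were DESeq2 1.42.0, other scaling factors and filters, a replicate block, fits to the compared groups alone and leaving out each library. An exact permutation test of 3 against 3 libraries cannot go below p = 0.1 and was not used. Coordinates are from GENCODE v44 (GRCh38), in which DDX58 is named RIGI.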

Additional observations from a re-analysis of the deposited data

Results flagged for a closer look

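For 5 interferon-stimulated genes the change with abemaciclib differed between cells without and with fulvestrant, by the edgeR quasi-likelihood interaction test. The log2 differences were -1.45 for ISG20, -0.97 for DTX3L, -0.76 for IRF1, -0.72 for BST2 and -0.61 for IFITM2. In all 5 the change was lower in the presence of fulvestrant, and 11.6% of all genes tested were called in that direction.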

How the results depend on the processing

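Over 19 alternatives, 34 of the 54 calls of interferon-stimulated genes in the 6 contrasts were kept under each that tested them, 20 were lost under at least 1, and none changed direction. Fits to the compared groups alone did not test the interaction. Nor did they test HERC6 for fulvestrant or the combination against DMSO, or PLSCR1 for the combination against abemaciclib. Without a filter on low counts the median log2 fold change was 0.46 for abemaciclib against DMSO, 0 for the combination against DMSO and -0.42 for the combination against abemaciclib, since 39 genes then entered. In fits to the compared groups alone the last was -0.0702. Leaving out each library in turn gave 6 to 14 calls for abemaciclib against DMSO, 11 to 15 for fulvestrant, 11 to 15 for the combination, 6 to 9 for the combination against abemaciclib, 0 to 0 against fulvestrant and 4 to 6 for the interaction. The medians then ran from 0.35 to 0.46, 0.16 to 0.29, 0.14 to 0.30, -0.19 to -0.036, -0.045 to 0.025 and -0.48 to -0.34 in the same order. The cause was not tested. With a replicate block the calls were 12, 15, 13, 8, 0 and 5, with PARP9 lost for abemaciclib (0.44, adjusted p 0.0619) and PLSCR1 for the combination against abemaciclib (-1.50, adjusted p 0.0578), and PARP14 gained for abemaciclib (0.37, adjusted p 0.0420). No pairing of the libraries by number was detected: over 18 same-number pairs the deviations from group means correlated at -0.21 to 0.12, and 5 of 12 libraries were closest to their own number. With 3 libraries per group this check could miss a pairing. The second list, of signalling genes and other interferon-stimulated genes, was run through the same alternatives after the data had been seen. Its calls in fits without 1 library ranged from 13 to 17 for abemaciclib, 17 to 22 for fulvestrant, 17 to 21 for the combination, 6 to 13 for the combination against abemaciclib, 0 to 0 against fulvestrant and 6 to 13 for the interaction. At 3299119 to 5164667 reads per library, genes near 3 reads were beyond measurement.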
